A study of Mus musculus with 21 samples.

Results

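The comparison described here is between hematopoietic stem cells (HSCs) of wild-type mice and of mice in which the autophagy gene Atg5 was targeted, neither of which had received a drug. It uses the 6 libraries labelled DMSO-treated WT and DMSO-treated Atg5-/- (3 each) of the 21 in the series, chosen by those labels alone, and all genes of the count table: 47729 were listed and 16149 passed the filter on low counts. The series examines how HSCs handle misfolded proteins. Bulk RNA was sequenced from bone marrow cells sorted as CD48- LSK CD150+, the LSK fraction being lineage-negative, Sca-1-positive and Kit-positive. The WT group carries no engineered allele in its labels. The other group is described as Mx1-Cre;Atg5fl/fl (its genotype field reads Atgfl/fl), so Cre is driven by the Mx1 promoter, which type I interferon switches on in blood cells and in other tissues. The labels name no inducer of the Cre and no age or sex. Both groups were injected retro-orbitally with the carrier alone, 10% DMSO, at 48 h and 24 h before the cells were taken. A further 6 libraries, 3 of each genotype, came from mice given 10 mg/kg bortezomib, a proteasome inhibitor, on the same schedule, and are used below only to show whether a difference recurred in separate libraries. Each difference given under bortezomib is one between the genotypes within those 6 libraries, not a response to the drug.

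Atg5 acts in macroautophagy, the pathway in which a double membrane closes around cell contents and delivers them to lysosomes. The Atg5 protein is joined to Atg12, and together with Atg16l1 the pair attaches LC3 and GABARAP proteins to the growing membrane. Autophagy in HSCs is known for clearing mitochondria and protein aggregates and for keeping the cells quiescent.

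Values are CPM, the counts scaled to a common effective library size, and are given in the order of replicates 1, 2 and 3. The libraries labelled Atg5-/- are called knockout-labelled. The 6 libraries held 15005500 to 31481691 counts and 17910 to 18899 detected genes, and 3 counts correspond to 0.0964 to 0.190 CPM. The sort was reflected in its markers, with Kit at 1011, 975 and 697 CPM in the WT libraries and 979, 886 and 1113 CPM in the knockout-labelled libraries. Slamf1, which encodes CD150, stood at 48.1, 44.9 and 38.5 CPM in WT and 55.5, 69.01 and 62.8 CPM in knockout-labelled libraries. Cd48, whose protein the gate excludes, was detected in all 6 libraries, at 11.3, 12.4 and 9.99 CPM in WT and 13.8, 20.1 and 17.7 CPM in knockout-labelled libraries. Slamf1, Cd48 and Ptprc, or 3 of 7 sort markers, were higher in every knockout-labelled library than in every WT library, beside 9.39% of all genes tested. In a principal component analysis of the 6 libraries, WT replicate 3 lay at -89.6 on the first component (29.6% of the variance), and the other 5 lay between -6.53 and 46.1. In bulk RNA, fewer cells of a type and less RNA per cell cannot be told apart, and because the labels do not give separate animals, each p-value measures only the spread between these samples.

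The sexes of the mice were not balanced between the groups. Xist, the RNA that coats the inactive X chromosome in female cells, stood at 89.7, 61.8 and 59.2 CPM in the WT libraries and at 0.182, 0.157 and 0.633 CPM in the knockout-labelled libraries. The Y-linked helicase gene Ddx3y showed the opposite order, at 0.712, 0.885 and 39.5 CPM in WT and 77.4, 40.2 and 63.5 CPM in knockout-labelled libraries. Thus all 3 knockout-labelled libraries carried male transcripts with Xist near the counting floor, WT replicates 1 and 2 carried female transcripts, and WT replicate 3 carried both. Other Y-linked genes had the same layout: Uty, a histone demethylase relative, stood at 0, 0.221 and 14.4 CPM in WT and 42.4, 37.8 and 39.1 CPM in knockout-labelled libraries. Kdm5d and Eif2s3y were at 0 CPM in WT replicate 1, and at 11.6 and 68.1 CPM in WT replicate 3. Sex and genotype therefore cannot be told apart in these 6 libraries, and reads of Xist and its antisense partner Tsix cannot be separated, since the strand setting of the counting is not given in the sources used here.

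Atg5 itself (ENSMUSG00000038160.6, GRCm38 chromosome 10, 44268358 to 44364291) was examined first. Its counts were 54.95, 39.9 and 74.6 CPM in the WT libraries and 114, 113 and 107 CPM in the knockout-labelled libraries. All 3 knockout-labelled libraries were above all 3 WT libraries, with means of 56.5 ± 17.4 CPM in WT and 112 ± 3.77 CPM in the knockout-labelled group (SD, n = 3 each). The log2 fold change was 0.98 ± 0.25 (SE), and edgeR's quasi-likelihood test gave an adjusted p of 0.218. DESeq2 and limma voom gave adjusted p-values of 0.0327 and 0.00483 for the same gene, within a range of log2 fold changes from 0.78 to 1.26 over all alternatives. The values were higher, not lower, in the libraries that carry the Atg5-/- label. A count over the whole gene takes in every exon, so it does not check a deletion that removes only part of the gene. Under bortezomib the same gene stood at 100.4, 72.1 and 135 CPM in WT and 95.2, 95.4 and 142 CPM in knockout-labelled libraries, a log2 fold change of 0.11 with an adjusted p of 0.767, and the difference between the genotype differences had an adjusted p of 0.131.

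Across all genes tested, edgeR's quasi-likelihood test called 0 of 16149 genes between the groups at an adjusted p under 0.05 (0%), and 1454 had an unadjusted p under 0.05 (9%). Of those, 846 were higher in the knockout-labelled libraries (5.24% of genes tested) and 608 were lower (3.76%). Without WT replicate 3 these shares were 3.14% and 2.22% of the genes then tested. They were 5.76% and 3.3% without the 3 libraries that the third component of all 12 sets apart, namely WT replicate 3 and, under bortezomib, replicate 3 of each genotype. With any single DMSO library left out, the shares ranged from 3.14% to 5.77% higher and from 2.22% to 4.07% lower. Counts of list members given below for such fits stand beside those ranges. The lowest adjusted p was 0.0534. With the same 12 libraries, the DESeq2 Wald test called 152 genes (1% of those it tested) and limma voom with sample weights called 114 (0.706%), of which 88 were shared. A fit to the 6 libraries alone called 23 (0.156%), and 18 genes were called by all 3 of these. Other settings called from 0 to 189 genes, the last with no filter on low counts (0.757% of the genes then tested). All 3 libraries of one group lay above all 3 of the other for 2910 genes (18%), 1517 of them higher in the knockout-labelled group (9.39%) and 1393 lower (8.63%). In contrast, the genotypes under bortezomib differed in 5234 genes (32.4%). Leaving out single libraries moved the count of 0 to 1 without WT replicate 3, to 5 without any one of 4 bortezomib libraries, and to 37 without knockout-labelled bortezomib replicate 3.

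The 23 genes with an adjusted p under 0.10 (0.142% of genes tested) comprised 14 with higher and 9 with lower values in knockout-labelled libraries, and in each the 2 groups did not overlap. Described next are 12 genes with higher and 11 with lower values, taken from the 12 of smallest p in each direction that have a standard symbol and average 5 CPM or more in the group with the higher level.

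Several of those with higher values encode surface receptors or proteins bound to them. Plxnb2, a receptor for semaphorins and angiogenin, stood at 28.6, 25.4 and 18.4 CPM in WT and 62.2, 58.8 and 54.02 CPM in knockout-labelled libraries. Every knockout-labelled value was above every WT value, with a log2 fold change of 1.27 ± 0.19 (SE) and an adjusted p of 0.0534. Tgfbr3, the TGF-beta co-receptor betaglycan, stood at 68.4, 68.6 and 64.9 CPM in WT and 144, 141 and 133 CPM in knockout-labelled libraries. These were narrow groups, 1.05 ± 0.20 (SE) apart on the log2 scale (adjusted p 0.089). Tgfbi, a secreted adhesion protein induced by TGF-beta, ranged more widely within the knockout-labelled group, at 152, 79.8 and 108 CPM against 28.4, 46.1 and 35.98 CPM in WT. Its log2 fold change was 1.63 ± 0.27 (SE) with an adjusted p of 0.0602. Sorl1, a sorting receptor of endosomes, had 12.5, 6.06 and 4.24 CPM in WT and 28.03, 21.4 and 33.4 CPM in knockout-labelled libraries. Clec10a, a galactose-binding lectin of dendritic cells and macrophages, was almost silent in WT at 0.254, 0.221 and 0.899 CPM and stood at 7.69, 3.78 and 4.50 CPM in the knockout-labelled libraries. Its log2 fold change of 3.46 ± 0.61 (SE) was the largest among the 12 genes with higher values, and its highest WT value came from replicate 3, without which it was 4.47.

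Other leading genes with higher values act inside the cell or in the matrix. Gfi1, a transcriptional repressor that restrains HSC division, stood at 16.9, 23.8 and 6.71 CPM in WT and 51.96, 62.03 and 62.3 CPM in knockout-labelled libraries. WT replicate 3 had the lowest value, and the groups lay 1.90 ± 0.33 (SE) apart on the log2 scale (adjusted p 0.0664). Gimap4, a GTPase of lymphocytes, stood at 15.4, 18.1 and 20.7 CPM in WT and 46.2, 57.7 and 50.3 CPM in knockout-labelled libraries, and no values overlapped. Prex1, an activator of the Rac GTPases, stood at 59.3, 54.1 and 36.5 CPM and 89.3, 103 and 109.6 CPM in the respective groups. The mitochondrial transport adaptor Trak2 stood at 17.2, 24.1 and 15.3 CPM in WT, and its knockout-labelled values of 40.4, 41.1 and 40.3 CPM lay close together. In these 3 genes, as in the 2 that follow, every knockout-labelled library was above every WT library. Lamb2, a laminin chain of basement membranes, stood at 10.4, 7.48 and 4.79 CPM in WT and 23.9, 24.6 and 32.4 CPM in knockout-labelled libraries. Col4a1, a chain of the type IV collagen of basement membranes, stood at 50.5, 52.5 and 27.05 CPM in WT and 108, 120.02 and 107 CPM in knockout-labelled libraries. Its log2 fold change was 1.37 ± 0.24 (SE), with an adjusted p of 0.0664. The long noncoding RNA Mirt1 had 1.68, 1.95 and 1.28 CPM in WT and 7.64, 4.72 and 13.4 CPM in knockout-labelled libraries.

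A pair of collagen genes outside that selection were chosen after their values were seen. Col4a2 is the partner chain of Col4a1, and their RefSeq starts lie 21 bases apart on opposite strands of chromosome 8. It stood at 60.1, 48.3 and 32.8 CPM in WT and 122, 119 and 119.8 CPM in knockout-labelled libraries, with a log2 fold change of 1.35 ± 0.29 (SE) and an adjusted p of 0.124. Col18a1, whose C-terminal fragment is endostatin, stood at 7.17, 9.42 and 9.70 CPM in WT and 38.2, 30.6 and 19.4 CPM in knockout-labelled libraries. Neither gene overlapped between the groups. Endothelial and stromal cells make much of these proteins, and 14 markers of those cells summed to 84.7 to 129 CPM in WT and 102 to 176 CPM in knockout-labelled libraries. Of these, Cdh5 and Col3a1 were at 0 in all 6 libraries, and Pecam1, which HSCs also express, stood at 46.7, 51.3 and 24.5 CPM in WT and 53.6, 52.4 and 76.4 CPM in knockout-labelled libraries. The part of such cells in the collagen and laminin values was not tested.

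Among the 11 genes described with lower values, Trpc6 had the smallest p. It encodes a calcium-permeable channel and stood at 94.2, 90.2 and 115 CPM in WT and 56.01, 48.8 and 48.1 CPM in knockout-labelled libraries. All knockout-labelled values were below all WT values, with a log2 fold change of -0.97 ± 0.17 (SE) and an adjusted p of 0.0664. Art4, the Dombrock blood group protein, had tight groups of 102, 117 and 108 CPM in WT and 58.6, 58.3 and 59.7 CPM in knockout-labelled libraries, -0.89 ± 0.16 (SE) apart on the log2 scale (adjusted p 0.0836). Trib2, a pseudokinase that promotes the breakdown of C/EBP alpha, stood at 26.5, 29.4 and 22.9 CPM in WT and 11.1, 5.25 and 5.89 CPM in knockout-labelled libraries. Its adjusted p was 0.089. Plk2, a kinase and p53 target, stood at 12.7, 14.6 and 16.5 CPM in WT and 3.64, 4.67 and 5.57 CPM in knockout-labelled libraries. The secreted matrix-associated protein gene Tinagl1 had 38.99, 56.3 and 38.6 CPM in WT and 18.8, 11.4 and 21.98 CPM in knockout-labelled libraries, with no overlap.

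The remaining lower genes had adjusted p-values above 0.10, apart from Xist. Clec7a, the beta-glucan receptor Dectin-1 of myeloid cells, stood at 7.42, 15.2 and 15.3 CPM in WT and 2.73, 2.94 and 2.41 CPM in knockout-labelled libraries. Fhl1, a LIM-domain protein gene on the X chromosome, stood at 56.6, 65.9 and 75.9 CPM in WT and 33.9, 30.5 and 34.3 CPM in knockout-labelled libraries. Upp1, a uridine phosphorylase, stood at 38.7, 43.2 and 50.2 CPM and 20.02, 21.6 and 22.4 CPM in the same order. These 3 genes were lower in every knockout-labelled library. Fam174b and Prkcdbp, the cavin-3 gene, were also lower without overlap, with log2 fold changes of -1.03 and -0.85. Tmem47, an X-linked gene of a junction-associated membrane protein, averages under 5 CPM in the group with the higher level. It was chosen after its values were seen because it had the smallest p of all genes. It stood at 3.56, 3.72 and 6.81 CPM in WT and 0.410, 0.262 and 0.507 CPM in knockout-labelled libraries, with a log2 fold change of -3.57 ± 0.53 (SE) and an adjusted p of 0.0534.

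**Figure D1:**
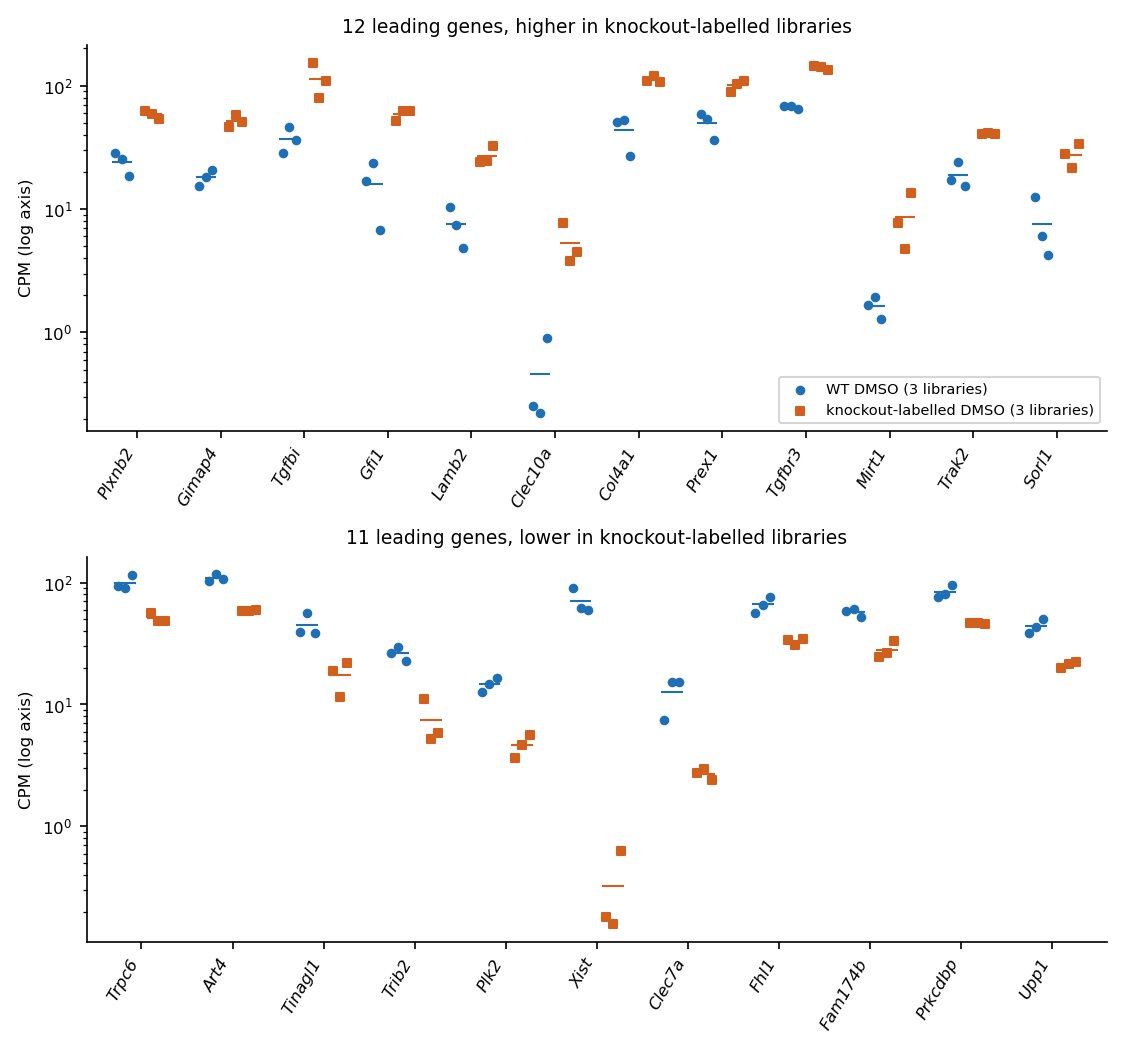
CPM on a log axis for the 12 described genes with higher values (top) and the 11 with lower values (bottom), with 1 point per library and horizontal bars at the group means (WT DMSO circles, knockout-labelled DMSO squares). In each gene the 3 points of one group lie apart from the 3 of the other, and Xist stood at 59.2 to 89.7 CPM in WT against 0.157 to 0.633 CPM in knockout-labelled libraries.

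Leaving out WT replicate 3 kept the sign of all 23 of these described genes and moved 1, Clec10a, by more than 1.5-fold. They were picked by p in these libraries and their groups do not overlap. Leaving out a library could therefore hardly turn a sign, and the kept signs are no separate support. These genes also kept their sign under each of the other alternatives run. Trib2, Clec7a and Xist moved by more than 1.5-fold when the Xist share was a covariate, and Xist also did without knockout-labelled replicate 3. The covariate is the share of Xist in the sum of Xist and Ddx3y, so it is built from Xist's own counts. That covariate fit called 2 genes, and it cannot separate sex from genotype in these libraries.

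The genotype difference was then set beside that of the bortezomib libraries, which share no library with the DMSO comparison. Of the 23 genes with an adjusted p under 0.10 in DMSO, 20 had the same direction there and 13 were called in it by edgeR's test, and 2 were called in the opposite direction. Over all 16149 genes the corresponding shares were 61.9% with the same direction and 23.6% called in it, and among the 1454 genes with an unadjusted p under 0.05 in DMSO they were 73.0% and 35.4%. Col4a1 lay 1.36 apart on the log2 scale under bortezomib (adjusted p 0.000768) against 1.37 in DMSO. Trib2 gave -2.35 (adjusted p 0.000345) against -1.82. Both were therefore called between the genotypes in the bortezomib libraries, Col4a1 higher and Trib2 lower in the knockout-labelled ones, and the difference between the genotype differences had adjusted p-values of 1 and 0.544 for them. Art4 and Tinagl1 were higher in knockout-labelled than in WT bortezomib libraries, by 0.65 and 0.83 on the log2 scale (adjusted p 0.00679 and 0.0182), although their knockout-labelled values were lower in DMSO. The genotype difference of Gimap4 was -0.17 under bortezomib (adjusted p 0.643). The difference between the genotype differences passed for Art4, Tinagl1 and Gimap4, with adjusted p-values of 0.00384, 0.00494 and 0.0112. These genes were picked by p in the DMSO libraries, and this test subtracts the DMSO difference, so the picking favours such calls. Across the table this test called 1462 genes (9.05%), and leaving out single libraries moved that count from 352, without knockout-labelled DMSO replicate 2, to 2820, without knockout-labelled bortezomib replicate 3. It moved by more than 1.5-fold for all omissions but those of replicate 3 in WT DMSO, WT bortezomib and knockout-labelled DMSO.

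**Figure D2:**
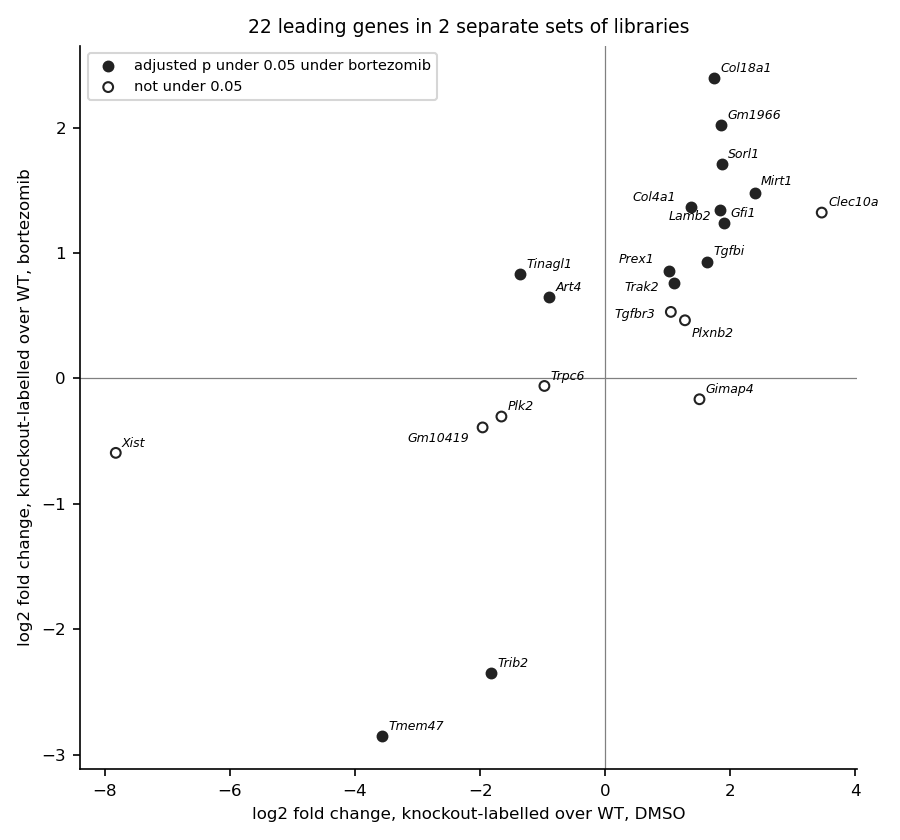
Log2 fold changes of knockout-labelled over WT libraries for 22 of the 23 genes with an adjusted p under 0.10 in DMSO, with the DMSO libraries on the horizontal axis and the separate bortezomib libraries on the vertical axis. Filled points had an adjusted p under 0.05 under bortezomib, and 19 of 22 points have the same sign on both axes, with Art4, Tinagl1 and Gimap4 in the opposite quadrants.

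The autophagy genes were taken in the order in which they act. Initiation factors gave 1 of 12 with an unadjusted p under 0.05 and higher values, and 0 with lower values, against 5.24% and 3.76% of all genes tested. That gene was Ambra1, a scaffold of the Beclin 1 complex, at 28.98, 39.7 and 24.5 CPM in WT and 43.6, 43.9 and 46.7 CPM in knockout-labelled libraries (adjusted p 0.444). Ulk1, the kinase that starts autophagy, stood at 50.98, 52.7 and 55.1 CPM in WT and 55.2, 71.5 and 99.2 CPM in knockout-labelled libraries. Knockout-labelled replicate 3 was the highest, replicate 1 lay just above the WT values, and the adjusted p was 0.593. Of 11 genes that supply membrane, 2 reached an unadjusted p under 0.05 with higher values, the lipid-transfer genes Atg2a and Atg2b. Atg2b stood at 19.2, 17.3 and 14.3 CPM in WT and 26.3, 28.3 and 29.1 CPM in knockout-labelled libraries, without overlap (adjusted p 0.394). Atg2a stood at 38.7, 25.97 and 16.7 CPM in WT and 43.4, 40.7 and 68.9 CPM in knockout-labelled libraries, with replicate 3 the lowest of the former and the highest of the latter. Vmp1, a scramblase of the endoplasmic reticulum, overlapped, at 127, 159 and 198 CPM and 144, 139 and 103 CPM.

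The LC3 conjugation list has 13 genes, and the 12 besides Atg5 lay between -0.52 and 0.26 in log2 fold change, with a lowest adjusted p of 0.453. The list's median was -0.14, beside 0.00054 over all genes tested. Of the 12, 4 were lower in every knockout-labelled library and 0 were higher in every one, beside 8.63% and 9.39% of all genes tested. The lowest adjusted p belonged to Atg4a, an X-linked protease that trims LC3 relatives, at 30.1, 28.3 and 24.9 CPM in WT and 20.1, 21.5 and 16.3 CPM in knockout-labelled libraries. Atg10, the enzyme that joins Atg12 to Atg5, stood at 30.6, 35.1 and 30.6 CPM in WT and 24.2, 26.8 and 26.8 CPM in knockout-labelled libraries. Atg3, the enzyme that passes LC3 to lipid, overlapped between the groups at 72.8, 83.8 and 66.9 CPM and 75.4, 65.1 and 44.3 CPM. All 5 genes encoding the LC3 and GABARAP proteins had an unadjusted p of 0.05 or more. Map1lc3b, the LC3B gene, stood at 379.6, 419 and 499 CPM in WT and 337, 364 and 389.9 CPM in knockout-labelled libraries. Gabarapl1 stood at 266, 287 and 262 CPM in WT and 219.6, 223 and 236 CPM in knockout-labelled libraries, lower without overlap (adjusted p 0.595). In the bortezomib libraries it was higher in the knockout-labelled than in the WT group, by 0.82 on the log2 scale (adjusted p 0.000605).

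**Figure D3:**
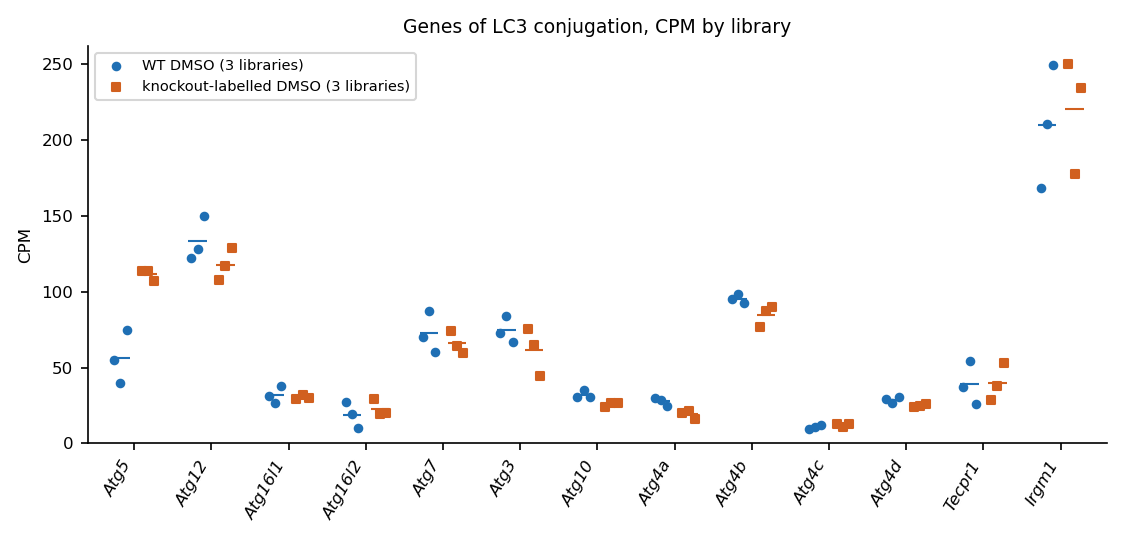
CPM of the 13 genes of LC3 conjugation, with 1 point per library and bars at the group means (WT DMSO circles, knockout-labelled DMSO squares). Atg5 is the only one of the 13 whose knockout-labelled libraries, 107 to 114 CPM, all lie above the WT libraries, 39.9 to 74.6 CPM.

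Of 24 tested receptors and aggresome factors, 2 had higher and 1 had lower values at an unadjusted p under 0.05. Over all genes the shares were 5.24% higher and 3.76% lower. Wdfy3 encodes Alfy, a scaffold for the autophagy of protein aggregates, and stood at 37.3, 31.5 and 31.4 CPM in WT and 47.2, 54.6 and 49.8 CPM in knockout-labelled libraries. Its log2 fold change was 0.60 ± 0.20 (SE) with an adjusted p of 0.394, and in the bortezomib libraries the knockout-labelled group was higher by 0.74 (adjusted p 0.0111). Bnip3, a mitophagy receptor, had lower values, at 66.9, 72.7 and 103 CPM in WT and 47.2, 54.9 and 59.97 CPM in knockout-labelled libraries. Of 13 genes for fusion with lysosomes, 1 was higher and 1 lower at that threshold, beside the same shares. Both encode SNARE proteins. Stx17 stood at 33.1, 33.4 and 30.5 CPM in WT and 44.4, 50.7 and 41.3 CPM in knockout-labelled libraries, whereas Vamp8 stood at 499, 543 and 735 CPM and 423, 477 and 419 CPM. Of 38 lysosomal genes, 1 was higher and 3 were lower, beside the same shares of all genes. Without WT replicate 3, 2 were higher and 0 lower, and without knockout-labelled replicate 2, 1 was lower. Without WT replicate 1 or knockout-labelled replicate 1 or 3, 0 were higher. Cd63, a lysosomal membrane tetraspanin, stood at 602, 614 and 907 CPM in WT and 448, 439 and 431 CPM in knockout-labelled libraries, with the highest value in WT replicate 3 (adjusted p 0.422). With single DMSO libraries left out, the counts for initiation, membrane supply, receptors and fusion ranged from 0 to 3, and without WT replicate 3 they were 0, 1, 1 and 1 higher, with 0 lower in each. The proton pump subunit gene Atp6v1c1 stood at 121, 112 and 133 CPM and 99.5, 83.97 and 95.00 CPM in the respective groups.

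Of 17 genes of TFEB, FOXO and TOR control, the regulators that set autophagy gene expression, 4 had an unadjusted p under 0.05, all with higher values, beside 5.24% of all genes, and the list's median was 0.31. Without knockout-labelled replicate 2, 3 were higher and 1 was lower. With length and GC offsets, 3 were higher and 1 was lower, beside 4.19% and 3.79% of all genes, and the median was 0.175. Foxo3, a factor needed for HSC maintenance, stood at 35.7, 27.1 and 26.8 CPM in WT and 33.2, 43.4 and 86.8 CPM in knockout-labelled libraries. The highest value, from knockout-labelled replicate 3, was far above the rest, and replicate 1 lay within the WT range. Mtor, the kinase that represses autophagy, stood at 18.05, 15.6 and 11.8 CPM in WT and 23.8, 26.3 and 25.4 CPM in knockout-labelled libraries (adjusted p 0.424). Sesn2, a stress-induced inhibitor of that kinase complex, was higher in each knockout-labelled library, at 25.3, 26.8 and 27.3 CPM in WT and 37.4, 43.7 and 41.5 CPM in knockout-labelled libraries.

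Genes of the endoplasmic reticulum had lower values. Of 26 tested members of the list of ER chaperones and the unfolded protein response, 8 had an unadjusted p under 0.05 and lower values and 0 had higher values, beside 3.76% lower and 5.24% higher of all genes, and 9 were lower without overlap, beside 8.63%. The list's median was -0.26. Leaving out single DMSO libraries gave 6 to 11 such lower genes, and 2 higher ones without WT replicate 1 or knockout-labelled replicate 2. Hspa5, the chief ER chaperone BiP, stood at 619, 547 and 559.8 CPM in WT and 423, 369 and 286 CPM in knockout-labelled libraries. All 3 knockout-labelled values were below the WT values, with a log2 fold change of -0.68 ± 0.18 (SE) and an adjusted p of 0.219. Pdia3, a disulfide isomerase that works with calreticulin, stood at 1058, 919 and 1043 CPM in WT and 792, 638 and 483 CPM in knockout-labelled libraries (adjusted p 0.245). Calr, the gene of calreticulin, was chosen after its values were seen and stood at 802, 699 and 850.03 CPM in WT and 633, 551 and 482 CPM in knockout-labelled libraries. In all 3 genes, knockout-labelled replicate 3 was the lowest library. In the bortezomib libraries the log2 fold changes of knockout-labelled over WT were -0.74 for Hspa5, -0.78 for Pdia3 and -0.93 for Calr (adjusted p 0.0047, 0.00343 and 0.000537), and 10 members of the list were called lower and 4 higher there, beside 15.3% and 17.2% of all genes.

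Because members of that list had lower values together, the 250 bases before their starts were searched for the ER stress response element (CCAAT, then 9 bases of any kind, then CCACG) on both strands. The promoters of Hspa5 and Calr are shown as those of the 2 members described that hold it, with the matched letters in capitals. They come from RefSeq on GRCm38.p6, at chr2:34771840-34772089 on the plus strand for Hspa5 and chr8:84846932-84847181 on the minus strand for Calr.
Hspa5: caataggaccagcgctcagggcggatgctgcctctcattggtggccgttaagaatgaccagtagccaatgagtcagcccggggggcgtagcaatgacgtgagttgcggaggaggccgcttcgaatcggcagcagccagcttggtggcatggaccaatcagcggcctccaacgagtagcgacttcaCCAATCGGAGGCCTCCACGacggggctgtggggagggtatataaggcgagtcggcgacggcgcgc
Calr: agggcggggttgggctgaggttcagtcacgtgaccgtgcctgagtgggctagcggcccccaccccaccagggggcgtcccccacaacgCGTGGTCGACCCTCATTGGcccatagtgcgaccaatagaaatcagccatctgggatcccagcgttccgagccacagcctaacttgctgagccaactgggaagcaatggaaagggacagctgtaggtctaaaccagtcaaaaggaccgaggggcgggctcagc
The Hspa5 match starts 65 bases before the gene's start and the Calr match, read on the opposite strand, 162 bases before it. The motif was in 8 of the 23 list members with a window and in 37 of 32851 windows of all genes (0.113%). A match is a description of these letters, and no match says only that they are not in this window.

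Interferon-stimulated genes had higher values. Of 35 tested, 11 had an unadjusted p under 0.05 and higher values and 0 had lower values, beside 5.24% and 3.76% of all genes, and 13 were higher without overlap, beside 9.39%. The list's median was 0.42. That count depended on single libraries. It was 4 without knockout-labelled replicate 3, beside 3.49% of all genes in that fit, and 7 without WT replicate 2, beside 4.94%. Without knockout-labelled replicate 1 or WT replicate 1 it was 6, beside 4.35% and 5.77%. In each of these fits 0 were lower. Oas2, a sensor that makes 2'-5' oligoadenylates on double-stranded RNA, stood at 6.35, 6.68 and 2.22 CPM in WT and 30.5, 19.1 and 24.3 CPM in knockout-labelled libraries. Its groups did not overlap, WT replicate 3 was the lowest, and its log2 fold change was 2.29 ± 0.50 (SE) with an adjusted p of 0.141. Its relative Oas3 stood at 10.9, 18.1 and 15.2 CPM in WT and 31.2, 34.9 and 38.5 CPM in knockout-labelled libraries, with a log2 fold change of 1.24 ± 0.28 (SE) and an adjusted p of 0.145. Stat2, a factor that carries the interferon signal to these genes and was chosen after its values were seen, overlapped, at 46.4, 52.1 and 35.7 CPM in WT and 85.5, 51.4 and 89.7 CPM in knockout-labelled libraries. Knockout-labelled replicate 2 was within the WT range. In the bortezomib libraries the log2 fold changes of knockout-labelled over WT were 2.42 for Oas2, 1.78 for Oas3 and 2.28 for Stat2 (adjusted p 0.00214, 0.00039 and 0.000244), with 25 of the 35 called higher, beside 17.2% of all genes.

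Interferon gamma also induces the IRG and GBP GTPases. Of 15 tested, 1 was higher and 0 lower at an unadjusted p under 0.05, beside 5.24% and 3.76% of all genes. Without WT replicate 1 the number higher was 2, and without WT replicate 2 or 3 or knockout-labelled replicate 1 it was 0. Gbp7 stood at 176, 139.8 and 86.98 CPM in WT and 250.04, 181 and 185 CPM in knockout-labelled libraries (adjusted p 0.605). Nlrc5, the activator of MHC class I genes, stood at 25.2, 23.9 and 18.7 CPM in WT and 36.6, 38.3 and 43.00 CPM in knockout-labelled libraries (adjusted p 0.397). Of 15 genes of its list, 2 were higher and 0 lower, beside the same shares of all genes. Without WT replicate 2 or 3 or knockout-labelled replicate 1 or 3, 1 was higher. Bcl3, a partner of NF-kB, overlapped at 27.96, 45.6 and 29.4 CPM and 87.05, 41.1 and 73.2 CPM.

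The interferon-stimulated response element (GAAA, 2 bases of any kind, GAAA) was searched in the same windows on both strands, and Oas3 and Stat2 are shown because both hold it. Their windows, from RefSeq on GRCm38.p6, are chr5:120777660-120777909 on the minus strand and chr10:128270248-128270497 on the plus strand, with the matched letters in capitals.
Oas3: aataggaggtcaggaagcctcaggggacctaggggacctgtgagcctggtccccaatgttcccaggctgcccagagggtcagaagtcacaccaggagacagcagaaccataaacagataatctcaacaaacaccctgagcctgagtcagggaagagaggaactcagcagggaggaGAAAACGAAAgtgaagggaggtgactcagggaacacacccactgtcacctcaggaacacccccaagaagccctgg
Stat2: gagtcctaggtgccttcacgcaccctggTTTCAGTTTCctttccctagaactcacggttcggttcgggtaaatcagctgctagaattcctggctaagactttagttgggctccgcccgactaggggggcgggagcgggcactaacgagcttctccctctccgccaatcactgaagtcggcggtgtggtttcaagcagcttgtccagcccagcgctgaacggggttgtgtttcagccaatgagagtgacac
The Oas3 match starts 75 bases and the Stat2 match, read on the opposite strand, 222 bases before the gene's start. The motif was in 8 of the 25 list members with a window, and in 978 of 32851 windows of all genes (2.98%). Oas2 was not among those 8, which can mean no match or no window. The windows are reference sequence, so the shares for either motif do not test the differences above.

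Of 23 cholesterol synthesis genes, 5 had lower and 0 had higher values at an unadjusted p under 0.05, beside 3.76% and 5.24% of all genes, with a median of -0.22. Without WT replicate 3, or without knockout-labelled replicate 1, 3 were lower. Fdft1, which makes squalene, stood at 32.4, 30.6 and 44.04 CPM in WT and 17.9, 22.4 and 19.3 CPM in knockout-labelled libraries. It was lower without overlap, with a log2 fold change of -0.85 ± 0.20 (SE) (adjusted p 0.198). Msmo1, a sterol oxidase, stood at 81.3, 84.9 and 148 CPM in WT and 55.6, 61.3 and 72.2 CPM in knockout-labelled libraries, with the highest value in WT replicate 3.

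Of 24 targets of NRF2, the regulator of antioxidant genes, 5 had lower and 1 had higher values at an unadjusted p under 0.05, beside 3.76% and 5.24% of all genes. Without WT replicate 2, WT replicate 3 or knockout-labelled replicate 1, 3 were lower, and without replicate 3 of either group 0 were higher. Me1, a malic enzyme that makes NADPH, stood at 13.5, 11.4 and 16.8 CPM in WT and 7.28, 8.19 and 5.45 CPM in knockout-labelled libraries. It was lower without overlap in DMSO (adjusted p 0.217). In the bortezomib libraries the knockout-labelled group was higher by 1.77 on the log2 scale (adjusted p 0.000212), and the difference between the genotype differences passed its own test (adjusted p 0.0028). Ftl1, a ferritin subunit for iron storage, stood at 1497, 1514 and 2075 CPM in WT and 956, 1265 and 1076 CPM in knockout-labelled libraries.

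Of 36 proteasome genes, 2 were lower and 0 higher at an unadjusted p under 0.05, beside 3.76% and 5.24% of all genes. The list's median was -0.26, with 31 of the 36 log2 fold changes below 0. With length and GC offsets the median was -0.17 and by limma voom -0.091, and in both 0 genes were lower at that threshold. The number lower was 0 without WT replicate 3 or knockout-labelled replicate 3, 5 without WT replicate 2, and 4 without any other DMSO library. Of these genes, Psmd14, a deubiquitinase of the lid, stood at 223, 228 and 345 CPM in WT and 187, 217 and 150.03 CPM in knockout-labelled libraries. WT replicate 3 was the highest library for this gene. Of 28 heat shock genes and cytosolic chaperones, 1 was higher and 1 lower, and 6 were lower without overlap, beside 8.63% of all genes. Without WT replicate 3 or knockout-labelled replicate 1 or 2, 0 were higher, and without knockout-labelled replicate 3, 2 were. Hspa4, a co-chaperone of Hsp70, stood at 141, 147 and 113 CPM in WT and 202, 178 and 152 CPM in knockout-labelled libraries. Hspb8, a small heat shock protein of chaperone-assisted autophagy, stood at 6.71, 9.51 and 10.2 CPM in WT and 2.09, 4.04 and 3.74 CPM in knockout-labelled libraries. Hspb8 was lower without overlap in DMSO (adjusted p 0.314), and in the bortezomib libraries the knockout-labelled group was higher by 1.44 (adjusted p 0.0117).

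**Figure D4:**
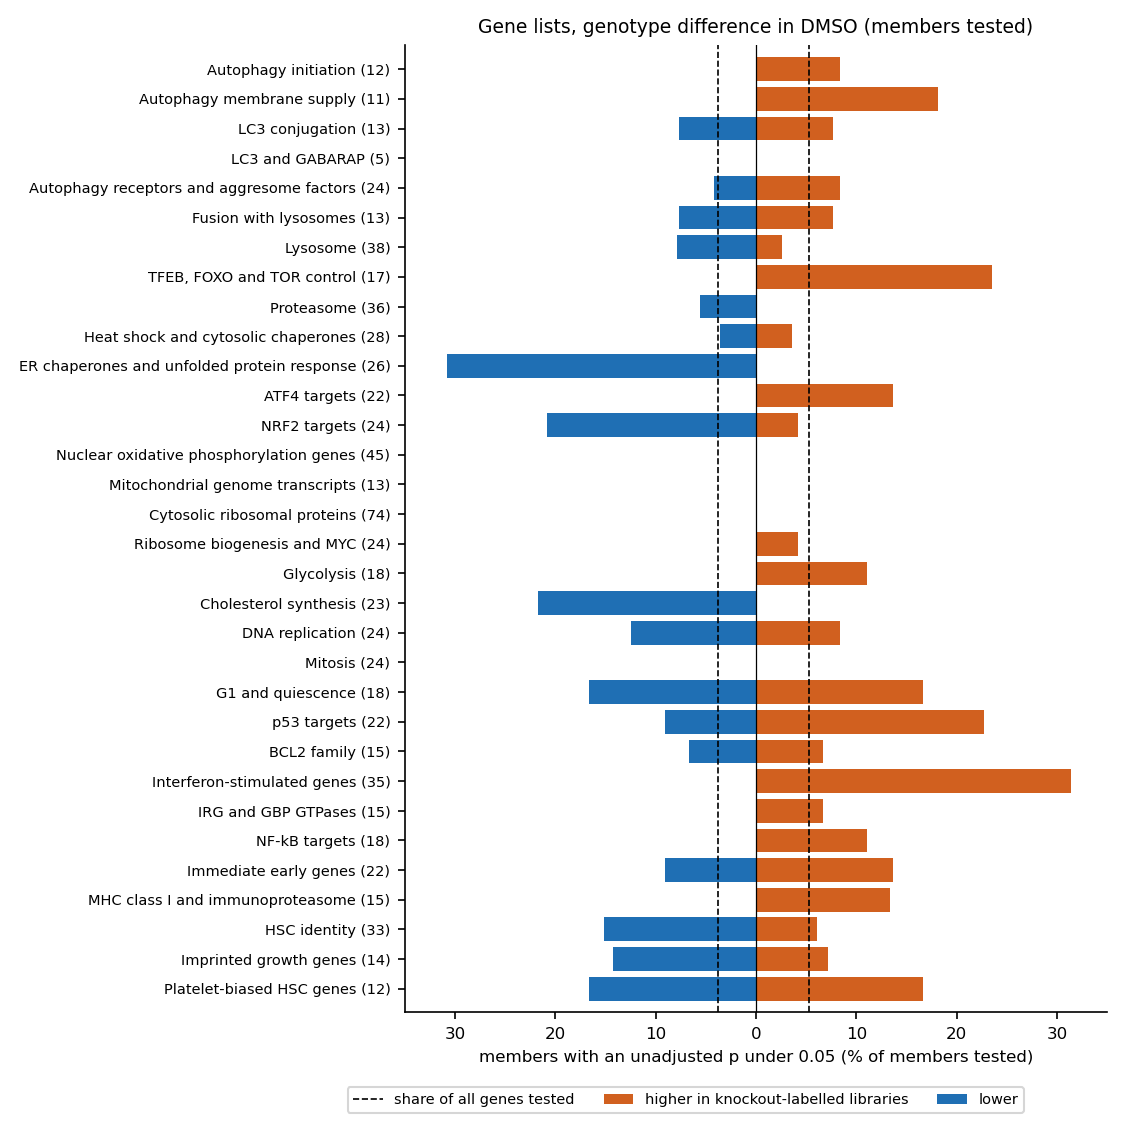
Share of the tested members of each of 32 gene lists with an unadjusted p under 0.05, drawn to the right for higher and to the left for lower values in knockout-labelled libraries, with dashed lines at the shares of all genes tested (5.24% and 3.76%). ER chaperones reach furthest to the left, at 8 of 26 members, and interferon-stimulated genes furthest to the right, at 11 of 35.

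Among 33 genes of HSC identity, 2 had higher values and 5 lower values at an unadjusted p under 0.05, beside 5.24% and 3.76% of all genes, with a median of 0.00059. Without knockout-labelled replicate 2, 4 were higher and 3 lower. Besides Gfi1, given above, Slamf1 was higher. Egr1, an early response factor that holds HSCs in quiescence, was lower without overlap, at 69.2, 62.3 and 80.6 CPM in WT and 30.99, 29.9 and 18.05 CPM in knockout-labelled libraries. Its log2 fold change was -1.42 ± 0.32 (SE), with an adjusted p of 0.145. Ndn, an imprinted regulator of quiescence, was lower at 78.5, 83.2 and 107 CPM in WT and 62.5, 50.9 and 61.9 CPM in knockout-labelled libraries. Selp, the adhesion receptor P-selectin, had higher values, at 48.8, 80.9 and 34.7 CPM in WT and 151, 102 and 149 CPM in knockout-labelled libraries, and its adjusted p was 0.108.

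Markers of other lineages were read in the same libraries. Of 10 tested megakaryocyte markers, 3 were lower and 0 higher at an unadjusted p under 0.05, beside 3.76% and 5.24% of all genes, and with the Xist share as a covariate 0 were lower and 3 higher. The summed level of that list was 835 to 1028 CPM in WT and 615 to 769 CPM in knockout-labelled libraries, with Gp6 and Cd226 at 0 in all 6. Mmrn1 and Nrgn, described next, have the highest CPM of the list and carry much of that sum. Of the 10 log2 fold changes, 4 were above 0 and 6 below. Without WT replicate 2, or without WT bortezomib replicate 3, 5 markers were lower at an unadjusted p under 0.05. Mmrn1, a platelet granule protein also found in HSCs, stood at 531, 571 and 408 CPM in WT and 375, 263 and 322 CPM in knockout-labelled libraries. Nrgn, a calmodulin-binding protein gene, stood at 243, 225 and 201 CPM in WT and 139, 144 and 134 CPM in knockout-labelled libraries, lower without overlap. Of 11 erythroid markers, 4 were higher and 1 lower, beside the same shares of all genes. Of these, 1 was higher without knockout-labelled replicate 3, and 2 were without WT replicate 1, WT replicate 2 or knockout-labelled replicate 2. The lower one was lost without any DMSO library other than knockout-labelled replicate 2. Hbb-bt, a beta globin gene, stood at 48.7, 49.5 and 70.6 CPM in WT and 62.7, 158 and 178 CPM in knockout-labelled libraries, with replicates 2 and 3 of the latter above the rest. Tfrc, the transferrin receptor gene, stood at 10.5, 8.94 and 2.31 CPM in WT and 35.04, 16.95 and 12.9 CPM in knockout-labelled libraries. Car2, the erythroid marker of highest CPM, went the other way, at 2092, 2091 and 2336 CPM in WT and 1567, 1883 and 1770 CPM in knockout-labelled libraries. The 13 erythroid markers summed to 2173 to 2437 CPM in WT and 1700 to 2094 CPM in knockout-labelled libraries. Of 17 monocyte and macrophage markers, 2 were higher and 2 lower, beside the same shares of all genes. Without WT replicate 3, 0 were higher and 4 lower, and without knockout-labelled replicate 2, 2 were higher and 4 lower. The number higher was 1 without WT replicate 1, WT replicate 2 or knockout-labelled replicate 1, and the number lower was 1 without knockout-labelled replicate 1 or 3. Vcam1 stood at 24.9, 28.9 and 28.5 CPM in WT and 7.78, 16.3 and 7.35 CPM in knockout-labelled libraries. Cd68 went the other way, at 22.7, 22.9 and 18.3 CPM in WT and 33.2, 29.5 and 29.1 CPM in knockout-labelled libraries. Of the 17 log2 fold changes, 7 were above 0 and 10 below. The summed level of those markers was 1127 to 1548 CPM in WT and 905 to 1460 CPM in knockout-labelled libraries, and Siglech was at 0. Of 14 B cell markers, 5 were at 0 in all 6 libraries, among them Ms4a1, Ebf1 and Pax5. Of 16 T and NK cell markers, 8 were, among them Cd3e, Cd3g and Cd8a. Other members of both lists were detected. Cd79b stood at 69.2, 74.0 and 88.3 CPM in WT and 52.8, 58.0 and 68.7 CPM in knockout-labelled libraries. Nkg7 stood at 72.3, 77.6 and 72.1 CPM in WT and 76.1, 115 and 131 CPM in knockout-labelled libraries. The part of other cells in these values was not tested.

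Because Xist differed between the groups, the lists were also counted in the fit with the Xist share as a covariate, in which 5.44% of all genes had an unadjusted p under 0.05 with higher values and 6.72% with lower values. Lower values were then found for 14 of 36 proteasome genes, 20 of 45 nuclear genes of oxidative phosphorylation, 21 of 74 cytosolic ribosomal protein genes and 6 of 26 ER genes, with 0 higher in each list. Of the interferon-stimulated genes 20 of 35 were higher and of the IRG and GBP GTPases 7 of 15, with 0 lower in either. The ER list's median was -0.080 in that fit and that of the interferon-stimulated genes 0.85.

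The genotype difference varied with gene length. Genes with an unadjusted p under 0.05 and higher values had a median exon length of 6853 bases, those with lower values 3329 bases, and all genes 3747 bases. Across genes, which are not independent replicates, Spearman's rho between the log2 fold change and exon length was 0.239 in DMSO and 0.253 under bortezomib. The median log2 fold change was -0.10 in the shortest of 10 equal bins of genes and 0.24 in the longest. With offsets for length and GC content, 13 genes were called.

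**Figure D5:**
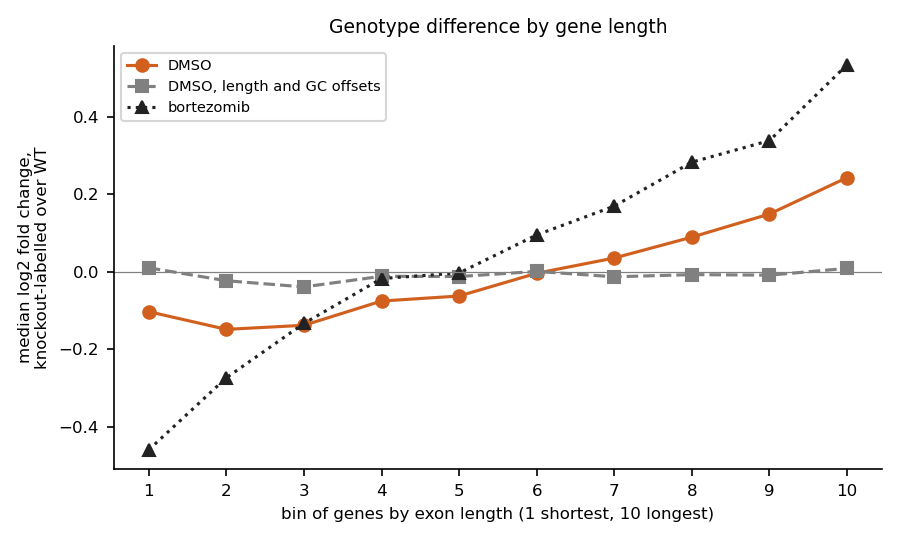
Median log2 fold change of knockout-labelled over WT libraries in 10 bins of genes by exon length, in DMSO (circles), in DMSO with length and GC offsets (squares) and under bortezomib (triangles). In DMSO the medians run from -0.15 in bin 2 to 0.24 in bin 10, and with offsets they lie between -0.039 and 0.0099.

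Genes near the targeted locus and near Mx1, the gene whose promoter drives the Cre, were counted as well. Within 10 Mb of Atg5, 4 of 72 tested genes had an unadjusted p under 0.05 (5.56%), and within 10 Mb of Mx1, 3 of 65 (4.62%), beside 9% of all genes. Near Mx1, 17 of the 65 were without overlap (26.2%), beside 18%. Of 584 X-linked genes, 60 had an unadjusted p under 0.05 (10.3%) and 109 were without overlap (18.7%). Among them were 2 of the 23 genes with an adjusted p under 0.10. Of the 6 tested Y-linked genes, 4 were without overlap.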

How the data were processed

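RNA was prepared with the RNeasy Plus Micro Kit and SMART-seq2 libraries, per the labels' protocols. Per the submitters' processing notes, Bowtie 1.0.0, STAR 2.6.1 and HTSeq 0.7.1 were used, and the builds GRCm38.p4 and GRCh38 are named without their roles. The deposited table holds raw counts per gene made by the authors, with 0 columns without a sample. Coordinates are GRCm38. The sources used here give neither annotation release nor strand setting.

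Groups came from the labels. The 12 treatment libraries were fitted together in edgeR 4.0.16 (R 4.3.3) after filterByExpr, with TMM scaling and 1 mean per group, so that all groups share the estimate of spread. The quasi-likelihood test was adjusted by Benjamini-Hochberg over 16149 genes, and a call needs an adjusted p under 0.05. An exact permutation test of 3 against 3 libraries cannot go below p = 0.10. Alternatives used DESeq2 1.42.0, limma 3.58.1 and other settings, and the fit was tested on simulated data. Replicate numbers did not pair the libraries. Members, gene lists and named genes were chosen with earlier results of these data known. Since 0 genes were called, the rule for named genes gives Atg5, the LC3 conjugation and sex-linked lists, the 12 smallest p in each direction at 5 CPM or more, and per list the 2 smallest p and 2 highest CPM. Part of these are described, and some are not reported here. In all, 42 lists were used. Promoter windows come from RefSeq, and 98.9% of gene IDs matched the reference annotation.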

Additional observations from a re-analysis of the deposited data

Results flagged for a closer look

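The genotype difference in DMSO and that under bortezomib differed by the test of the difference itself (edgeR's quasi-likelihood test, adjusted over all genes) for 19 of the 87 genes described, beside 9.05% of all genes tested. Many of the 87 were picked by p in the DMSO libraries, and this test subtracts that DMSO difference. The picking therefore favours calls, and the 19 are not separate support. Values below are the bortezomib log2 fold change minus the DMSO one, with its adjusted p. They were -1.67 (0.0112) for Gimap4, 0.91 (0.0297) for Trpc6 and 1.54 (0.00384) for Art4. Tinagl1 gave 2.19 (0.00494), Xist, near the counting floor in knockout-labelled libraries, 7.23 (0.0273), Fam174b 1.10 (0.0397) and Upp1 1.51 (0.0132). Egr1 gave 1.66 (0.0322), Me1 2.76 (0.0028), Mmrn1 0.91 (0.0311) and Hspb8 2.88 (0.0114).

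For Socs3, a feedback inhibitor of cytokine signalling, it was 1.89 (0.0221), for the proapoptotic gene Bbc3 1.18 (0.0425), and for Stat2 1.52 (0.0466). Ulk1 gave 1.39 (0.0359) and Gabarapl1 1.08 (0.00819). Hbb-bt gave -4.14 (0.00637) and Hspa4 -0.88 (0.0367). For Cd48, whose protein the sort excludes, it was -2.78 (0.0093). Sex-linked transcripts also differed between libraries of a group under bortezomib, where Xist made up 46.4%, 31.8% and 90.3% in WT and 100%, 0% and 3.51% in knockout-labelled libraries, of the sum of Xist and Ddx3y. With the Xist share as a covariate, the test called 276 genes in place of 1462.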

How the results depend on the processing

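Of the 87 genes described, 82 kept their sign under every alternative and 50 were called under at least 1. Many were picked by p in these same libraries, so the kept signs and the calls are no separate support. Some alternatives leave out only bortezomib libraries, which are not part of the DMSO group means. The share of all genes called under at least 1 alternative was not counted. Calls in DMSO numbered 0 at first and 189 with no filter on low counts, 23 with only the libraries compared, 2 with the Xist share covariate, 13 with length and GC offsets, 152 by DESeq2, 114 by limma voom, and 40 when the 3 libraries that component 3 sets apart were dropped, a setting chosen after seeing the data. Leaving out single libraries gave 0 to 37. With the replicate number as a block, 23 were called, but same-numbered libraries correlated at 0.070, -0.021 and 0.044 in their deviations, so the numbers were not taken as pairs. The log2 fold change of Atg5 was called at 0.98 with no filter, 1.05 with the block, 1.24 without those 3 libraries, 0.96 by DESeq2 and 1.26 by limma voom. The test of the difference between genotype differences called 2319 genes with no filter, 276 with the Xist covariate, 4015 without the 3 libraries, 2443 by DESeq2, 4862 by limma voom, and 352 to 2820 with single libraries left out. The sign turned for Kit, to -0.036 with offsets, -0.0022 to 0.25 with single libraries left out and -0.0030 by limma voom, and the cause was not tested. With the Xist covariate it turned for Ddx3y (-3.73), Uty (-2.60), Kdm5d (-2.53) and Eif2s3y (-5.85). That covariate is the share of Xist in the sum of Xist and Ddx3y, so it is built from Ddx3y's own counts and tracks sex. The fit therefore cannot give a genotype difference for these Y-linked genes. Of the list medians recomputed, 840 moved by less than the spread between replicates and 42 by more. With 3 libraries per group, precision is limited by their number.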

Other observations

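Of 45 nuclear genes of oxidative phosphorylation, 74 cytosolic ribosomal protein genes and 13 transcripts of the mitochondrial genome, 0 had an unadjusted p under 0.05 in either direction by edgeR's test in DMSO, where 5.24% of all genes were higher and 3.76% lower. These counts depended on the setting. With the Xist share as a covariate, 20 oxidative phosphorylation and 21 ribosomal protein genes were lower, beside 6.72% of all genes. Ribosomal protein genes with higher values numbered 15 without the 3 libraries that component 3 sets apart (5.76% of all genes), 3 without WT replicate 3, 1 without knockout-labelled replicate 1 and 6 by limma voom. Without WT replicate 1, 1 oxidative phosphorylation gene was lower. The respiratory chain genes had a median log2 fold change of -0.15 in DMSO and of -1.18 between the genotypes in the bortezomib libraries, where 43 of 45 were called lower in the knockout-labelled group, beside 15.3% of all genes. Ndufb9, a complex I subunit, stood at 325, 329.7 and 567 CPM in WT and 275, 355 and 278 CPM in knockout-labelled libraries. WT replicate 3 was the highest of the 6.

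Cell cycle genes were mixed. At an unadjusted p under 0.05, 3 of 18 G1 and quiescence genes were higher and 3 lower, beside 5.24% and 3.76% of all genes. Without WT replicate 3, 1 was higher and 2 were lower. Without WT replicate 2, 3 were higher and 0 lower, without knockout-labelled replicate 1, 3 and 1, and without knockout-labelled replicate 3, 2 and 1. Cdk6, a kinase of the exit from quiescence, stood at 101, 101 and 71.2 CPM in WT and 164, 102 and 168 CPM in knockout-labelled libraries, and its inhibitor gene Cdkn2c at 28.5, 30.7 and 28.2 CPM and 22.4, 20.2 and 17.1 CPM. Mki67, a marker of cycling cells, overlapped at 19.2, 13.7 and 4.30 CPM and 33.8, 14.1 and 27.1 CPM. Among 22 p53 targets, 5 were higher and 2 lower, beside the same shares of all genes. Without knockout-labelled replicate 3, 3 were higher and 1 was lower, and without knockout-labelled replicate 2, 1 was lower. Phlda3, an inhibitor of Akt, stood at 5.95, 4.42 and 5.49 CPM in WT and 13.8, 10.7 and 18.9 CPM in knockout-labelled libraries, higher without overlap (adjusted p 0.21), while the p53 target Plk2 was lower. The glycolytic genes Hk2 and Pfkm had higher values, at 27.98, 23.6 and 28.5 and 96.3, 92.3 and 88.1 CPM in knockout-labelled libraries against 22.1, 18.3 and 8.90 and 79.2, 70.4 and 39.1 CPM in WT, and WT replicate 3 was the lowest in both. They were the 2 of 18 glycolysis genes with an unadjusted p under 0.05, beside 5.24% of all genes higher and 3.76% lower. Without WT replicate 3 or knockout-labelled replicate 1, 0 reached it, and without knockout-labelled replicate 2 or 3, 1 did.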
